A study of Mus musculus and Mus musculus
Rattus norvegicus with 30 samples.

Results

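The regions described here are 23826 Cdx2 peaks of mouse embryonic stem cells (mESCs). They lay outside the accessible chromatin detected in those cells and overlapped no Cdx2 peak called in a hybrid cell type. They were chosen from the measured peak calls: a peak on chromosomes 1 to 19 of the mESC Cdx2 ChIP-seq set was a member if it overlapped no ATAC-seq peak and no Cdx2 peak called on the mouse genome of rat-mouse hybrid embryonic stem cells (RMES). Members made up 27.6% of the 86450 autosomal mESC Cdx2 peaks, which were part of 91665 in all. The study expressed Flag-tagged mouse Cdx2 (mCdx2) or rat Cdx2 (rCdx2) from a doxycycline-inducible lentivirus in mESCs and in RMES, which carry 1 haploid mouse and 1 haploid rat genome. Cdx2 ChIP-seq used the Flag antibody with 1 library per protein in each cell type. ATAC-seq compared mCdx2-OE mESCs with WT mESCs, 1 library each, and RNA-seq of mESCs had 2 libraries for each of 10 conditions, which were WT, both overexpressed proteins and mutant forms of rCdx2. WT is the name in the sample labels, and the study describes its controls as cells that received no doxycycline. The ChIP-seq columns carry the letters MFO and RFO, which were read as mCdx2 and rCdx2 from the naming of the other files, and the text on the rCdx2 library names mCDX2 as the protein pulled down.

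Cdx2 is a homeobox transcription factor that specifies the trophectoderm, the outer layer of the blastocyst that gives rise to the placenta, and that later maintains the identity of intestinal epithelium. Its homeodomain recognises AT-rich DNA, with TTTATG or TTTATT at the core. ATAC-seq detects DNA that is open to a transposase, so a ChIP-seq peak outside every ATAC-seq peak marks a site where the tagged protein was recovered from DNA that did not stand out as open.

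Windows of 200 bases around the centre of 8 members are printed first, from the GRCm38 (mm10) reference, plus strand. Each match to GCCATAAA, GCAATAAA, GTCATAAA or GTAATAAA on either strand is in capitals. All other bases are in lower case, which does not mark repeats here. The first 3 are the strongest members, by scaled reads, whose centre held such a match. They lay between genes, and the nearest protein-coding gene starts were those of Fbxo8, Arrdc3 and 1700015G11Rik.
chr8:56709497-56709696: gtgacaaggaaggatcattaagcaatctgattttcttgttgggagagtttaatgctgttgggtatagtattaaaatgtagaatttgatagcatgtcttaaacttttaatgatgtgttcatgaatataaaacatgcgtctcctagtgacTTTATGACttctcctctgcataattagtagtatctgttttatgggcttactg
chr13:80234277-80234476: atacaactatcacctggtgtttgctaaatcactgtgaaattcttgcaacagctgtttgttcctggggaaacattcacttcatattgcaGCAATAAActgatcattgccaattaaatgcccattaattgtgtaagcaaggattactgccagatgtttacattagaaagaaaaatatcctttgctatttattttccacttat
chr7:52743132-52743331: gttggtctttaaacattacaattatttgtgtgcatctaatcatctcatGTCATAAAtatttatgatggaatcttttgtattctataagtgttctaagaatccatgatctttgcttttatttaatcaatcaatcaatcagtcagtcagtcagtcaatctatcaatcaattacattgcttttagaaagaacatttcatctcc
The next window comes from the strongest intergenic member, which had 265 mCdx2 and 286 rCdx2 fragments and no match in its centre.
chr1:98733038-98733237: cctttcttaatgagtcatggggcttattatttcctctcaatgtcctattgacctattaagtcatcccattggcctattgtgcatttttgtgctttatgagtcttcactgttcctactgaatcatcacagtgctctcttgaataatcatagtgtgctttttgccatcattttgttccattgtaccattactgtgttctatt
The next 2 belong to the 11 members with 3 or more matches in the window, and were printed because one holds 3 scattered copies and the other 6 copies in a repeated unit.
chr10:116809935-116810134: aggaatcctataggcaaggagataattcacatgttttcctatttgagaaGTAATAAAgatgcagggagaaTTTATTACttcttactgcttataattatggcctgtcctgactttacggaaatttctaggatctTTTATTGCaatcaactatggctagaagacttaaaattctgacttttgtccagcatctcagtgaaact
chr4:56693409-56693608: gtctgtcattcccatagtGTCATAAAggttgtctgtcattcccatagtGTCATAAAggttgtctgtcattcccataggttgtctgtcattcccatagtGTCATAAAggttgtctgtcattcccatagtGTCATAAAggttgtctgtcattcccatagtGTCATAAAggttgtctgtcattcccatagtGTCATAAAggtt
The last 2 lie in an intron of Rapgef4 and an intron of Ebf1, genes whose RNA levels are given further on.
chr2:71997378-71997577: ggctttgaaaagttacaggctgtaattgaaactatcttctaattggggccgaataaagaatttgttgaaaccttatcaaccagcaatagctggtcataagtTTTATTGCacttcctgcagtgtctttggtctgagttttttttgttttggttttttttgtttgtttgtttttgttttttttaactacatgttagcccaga
chr11:44639665-44639864: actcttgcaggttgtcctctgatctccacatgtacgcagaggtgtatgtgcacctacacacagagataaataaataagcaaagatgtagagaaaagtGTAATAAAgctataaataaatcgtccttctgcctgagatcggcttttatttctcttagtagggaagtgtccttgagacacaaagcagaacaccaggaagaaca

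Members were weak peaks. The mCdx2 and rCdx2 libraries placed 6223794 and 5550846 fragments in the 91665 peaks, and after scaling both to the same total the median member held 61.1 fragments over both libraries, with 10% of members below 41.1 and 10% above 113. The median was 102 in peaks without ATAC overlap that were also called in RMES, 72.4 in peaks with an ATAC peak called only in mESCs, and 206 in peaks with both. Members were also short, with a median length of 302 bases against 401 in the RMES-shared peaks without ATAC overlap, and the median density of 191 fragments per kb was below the 240 of that class. Together the members held 15.2% of the scaled fragments in autosomal peaks. With 1 library per protein these values have no replicate error, and the 95% Wilson intervals given with shares cover counting error only.

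The share of members fell at every step from weak to strong peaks. Autosomal peaks were split into deciles of scaled reads. In the decile with the fewest reads, 56.9% were members (95% interval 55.9 to 58.0%), and the share was 31.3% in decile 5 and 0.821% in decile 10, 71 peaks of 8645. The same order held among peaks without ATAC overlap alone, of which 36% in decile 1 and 98.4% in decile 10 had an RMES peak. The RMES set of 74650 peaks held fewer fragments, 4357448 for mCdx2 and 3387074 for rCdx2. In RMES, the paper assigned each read to the mouse or the rat genome by edit distance, a step that mESC reads did not pass. The mESC and RMES peak sets also carry different filter labels, so their calling cutoffs may differ. The reads of RMES at members are not in the files used here, so a site that was not bound in RMES and a site whose signal stayed under the RMES calling threshold cannot be told apart.

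**Figure D1:**
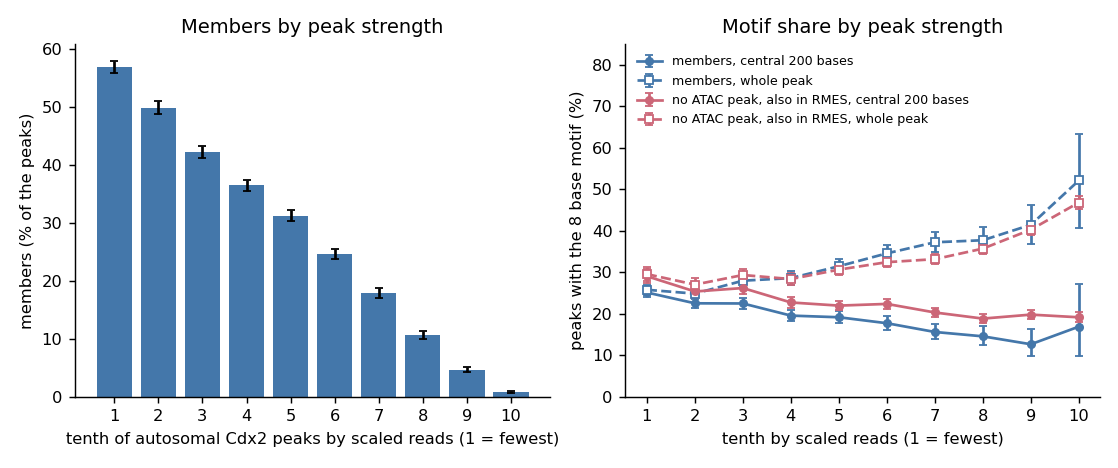
Left, members as a percentage of autosomal mESC Cdx2 peaks by decile of scaled reads; right, percentage of peaks with the 8 base motif for members and for RMES-shared peaks without ATAC overlap, in the central 200 bases or the whole peak. Bars and points carry 95% Wilson intervals; the member share drops from 56.9% to 0.821%, and the 2 ways of counting motifs slope in opposite directions.

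The boundary of the rule cut through few peaks. At 0 bases from a peak of either set lay 2 members, and 306 members (1.28%) had one within 100 bases, 302 of them an ATAC peak and 4 an RMES peak. The members within 100 bases held a median of 53.9 scaled fragments. Just outside the rule, 77 peaks overlapped an ATAC peak by at most 20 bases and no RMES peak, with a median of 60.5 fragments. Members were 17067 bases from the nearest ATAC peak and 9557 bases from the nearest RMES peak on the median, and 48.3% of members had a peak of at least one set within 5000 bases.

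The strongest members were seen with both proteins. The highest lay at chr6:60945599-60946492 in an exon 21069 bases from the start of Mmrn1, which encodes a platelet and endothelial adhesion protein, with 357 mCdx2 and 300 rCdx2 fragments. Ranks 2 and 11 were neighbours at chr1:98732713-98733564 and chr1:98731213-98731696, with 265 and 286 fragments in the first and 208 and 180 in the second, and Slco6d1 was the nearest gene of both, at 312014 and 310330 bases. Rank 4 at chr7:44163733-44164849, 23945 bases from Klk1b24 of the kallikrein family, had 257 and 235 fragments, and 96.5% of its central 200 bases was masked as repeat. The member of rank 5, whose window is printed first, had 249 and 213 fragments 158507 bases from Fbxo8, an F-box protein gene.

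Another 6 of the 12 strongest were of like height. The Arrdc3 member had 253 mCdx2 and 207 rCdx2 fragments, 649007 bases from that arrestin-family gene. A member 359013 bases from Cdh12, a neuronal cadherin gene, had 200 and 215. The member nearest to 1700015G11Rik had 208 and 200, the one nearest to Ncam2 (a neural cell adhesion molecule) 217 and 180, the one nearest to Cwc22 (a splicing factor) 203 and 192, and the one nearest to Cited2, a transcriptional coregulator gene, 203 and 176. The log2 ratio of mCdx2 over rCdx2 in the 12 ran from -0.27 to 0.12. Of the 12, the members near 1700015G11Rik and Cwc22 were 185 and 192 bases from an RMES peak. None of the 12 was within 1000 bases of an ATAC peak, the smallest gap being 1294 bases at the Cwc22 member.

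Across all members, mCdx2 and rCdx2 gave nearly equal reads after both libraries were scaled to the same total. That scaling brings the libraries level over all peaks (median log2 ratio -0.007), so the values of members are relative to all peaks. The median log2 ratio of mCdx2 over rCdx2 (scaled, with 1 fragment added) was -0.05 and its SD over members 0.39. In members the ratio passed 2-fold toward mCdx2 in 165 peaks (0.693%) and toward rCdx2 in 191 (0.802%), beside 0.452% and 0.46% of all 91665 peaks. These shares went with low counts. Below 50 scaled fragments, 1.5% and 1.36% of members passed, against 1.63% and 1.31% of all peaks at that depth. Above 100 fragments, 1 and 3 members of 3528 passed, and these were 0.0283% and 0.085% against 0.0329% and 0.0405% of all such peaks. The most mCdx2-biased member, at chr12:116178759-116178956, had 28 mCdx2 and 5 rCdx2 fragments, and the most rCdx2-biased, at chr9:48025392-48025664, had 11 and 38. With 1 library per protein, these ratios compare libraries and allow no test.

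The sequence under the members carried the Cdx2 motif. A match to 1 of the 4 spellings of 8 bases stood in the central 200 bases of 4983 members, 20.9% (95% interval 20.4 to 21.4%). In windows 2000 bases to either side of the same members the share was 3.92%, and in windows placed every 10000 bases along the autosomes 3.36%. The shares in the other classes were close to that of the members, 22% in RMES-shared peaks without ATAC overlap, 22.6% in ATAC-overlapping peaks called only in mESCs and 25.9% in peaks with both, and 22.2% in all autosomal peaks. The shorter core CATAAA, which is contained in 2 of the 4 spellings, was in 40.4% of member centres and 17.4% of the flanking windows.

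The motif lay at the middle of the peak. In 20 base bins, members had 34.8 copies per 1000 peaks at the bin next to the centre and a mean of 4.55 beyond 500 bases, and 14.2% of members held a copy within 50 bases of the centre. A single copy was the rule among members with a match: 4582 had 1, 390 had 2 and 11 had 3 or more. Reads did not increase with copies. The median was 62.3 scaled fragments with no copy, 57.8 with 1, 55.7 with 2 and 45.0 with 3 or more.

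**Figure D2:**
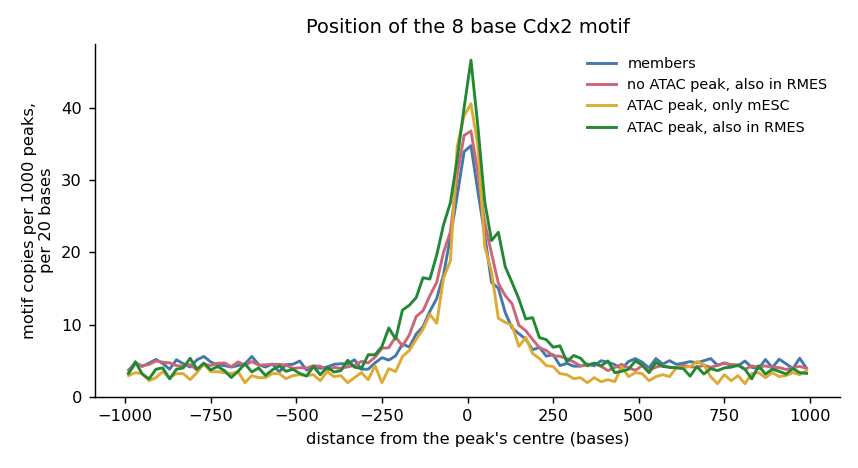
Copies of the 8 base Cdx2 motif per 1000 peaks in 20 base bins, by distance from the peak's centre, for members and the 3 other classes of autosomal mESC Cdx2 peaks. All classes rise at the centre, members to 34.8, from about 4.55 beyond 500 bases.

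How the motif share moved with peak strength depended on the window. In the central 200 bases it fell from 25.1% (95% interval 23.9 to 26.4%) of members in decile 1 to 12.7% (9.76 to 16.3%) in decile 9 and 16.9% (9.94 to 27.3%) in decile 10. Over the whole peak it was 25.8% in decile 1 and 52.1% (40.7 to 63.3%) in decile 10, where peaks are longer. In RMES-shared peaks without ATAC overlap the same 2 measures ran from 29.0% to 19.2% and from 29.6% to 46.8%. At matched strength the members' central share was below that of the shared class in all 10 deciles, with intervals that did not meet in the first 9, for example 22.5% against 25.4% in decile 2 and 15.6% against 20.3% in decile 7. Over the whole peak the order turned, with members below the shared class in deciles 1 to 3 and above it in deciles 4 to 10. There the intervals did not meet in decile 1, at 25.8% against 29.6%, and in decile 7, at 37.2% against 33.2%, and met in the others.

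The member sequences were AT-rich and poor in CpG. The mean GC content of the central 200 bases was 32.5%, against 39.9% in the flanking windows, 41.9% in windows along the autosomes, and 42.9% and 39.1% in the classes with an ATAC peak. RMES-shared peaks without ATAC overlap were close to the members, with 33.4% GC and no CpG in 43.8%. No CpG was present in 45.4% of the member windows and in 19.1% of the ATAC-overlapping windows called only in mESCs. Repeat-masked bases made up 23.7% of member windows, more than the 19.3% in RMES-shared peaks without ATAC overlap and less than the 32.7% in flanking windows. Among 2080 strand-merged words of 6 bases, 43 were over 2 times as frequent in member centres as in the flanks. TAATTA, the homeodomain core, led with 31.4% of members against 8.89% of flanks, followed by CAATTA at 31.5% against 11.3% and CAATAA at 37.7% against 13.9%. The depleted end was all GC-rich, with CGCGCG in 0.042% of members and 0.233% of flanks.

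Motifs of other factors were searched in the same windows on both strands, each by 1 spelling, and the shares in windows every 10000 bases along the autosomes are given last. The Hox-type TGATTTAT, which can overlap a Cdx2 motif, was in 4.71% of members, 1.46% of flanks and 1.21% of autosomal windows, and AGATAA of GATA factors in 21.4%, 14.7% and 13.2%. The octamer ATGCAAAT, bound by Oct4, was in 2.53% of members, 1.95% of flanks and 1.68% of autosomal windows, and CATTGTT of Sox factors in 6.09%, 4.41% and 3.95%. Less frequent in members than in flanks were GGGTGTG of Klf factors (1.76%, 2.84% and 3.31%), GGAATG of Tead factors (9.08%, 11.2% and 10.8%) and CCANNAGGG of Ctcf (1.05%, 2.00% and 2.35%). TGANTCA of AP-1 gave 7.14%, 6.15% and 6.01%, and CAAGGTCA of Esrrb 0.886%, 0.953% and 1.09%. ATAC-overlapping peaks called only in mESCs held the Klf, Tead and Ctcf spellings in 7.0%, 15.3% and 3.44%. RMES-shared peaks without ATAC overlap held these spellings in 1.27%, 10.1% and 1.14%, the Hox type in 4.36% and GATA in 19.7%. These shares were nearer to those of members than to those of ATAC-overlapping peaks called only in mESCs. Wilson intervals of members and shared peaks met for Ctcf and the Hox type, but not for Klf, Tead, GATA and the octamer. The octamer was in 1.92% of these shared peaks, near the share of flanks, and in 2.62% of ATAC-overlapping peaks called only in mESCs. Such a match describes letters and not the binding of a factor. Member centres had a mean GC content of 32.5%, against 39.9% in flanks and 41.9% in autosomal windows. No background of matched base composition was used. The part of composition in the shares of these spellings and of the Cdx2 motif was not tested.

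Members were far from gene starts. Within 1000 bases of any annotated gene start lay 392 members (1.65%, 95% interval 1.49 to 1.81%), 2.89% were in exons elsewhere, 43.2% in introns and 52.3% between genes. Promoter shares in the other classes were 1.52% in RMES-shared peaks without ATAC overlap, 7.39% in ATAC-overlapping peaks called only in mESCs and 4.93% in peaks with both. The median distance to a protein-coding gene start was 113250.5 bases in members, and 25.3% of members lay within 30000 bases of one. The RMES-shared class without ATAC overlap was alike at 116713 bases, while the classes with an ATAC peak had medians of 47330 and 32656 bases.

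The share of members differed between chromosomes. On 17 autosomes it lay between 24.2% and 28.3%, while on chromosome 3 it was 32.4% (95% interval 31.4 to 33.5%) and on chromosome 16 35.6% (34.2 to 36.9%). Members per Mb were 14.8 and 17.5 there and 6.22 to 10.2 on the others. ChIP-seq and ATAC-seq reads were also higher on these chromosomes. At peaks shared with RMES, the median log2 ratio of mESC over RMES reads was 0.02 on chromosome 3 and 0.14 on chromosome 16 for mCdx2, and -0.30 to -0.20 on the other 17, and for rCdx2 -0.05, 0.13 and -0.33 to -0.25. The median log2 ratio of ATAC reads in mCdx2-OE over WT was 0.37 and 0.23 on these chromosomes and -0.31 to -0.13 elsewhere. Median log2 RNA changes of mCdx2-OE against WT were 0.32 on chromosome 3, above the -0.25 to 0.20 of the other 17, and 0.13 on chromosome 16, within that range. The part that a chromosome-wide difference has in the member share was not tested. Without these chromosomes, 19738 of 74312 peaks were members (26.6%).

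**Figure D3:**
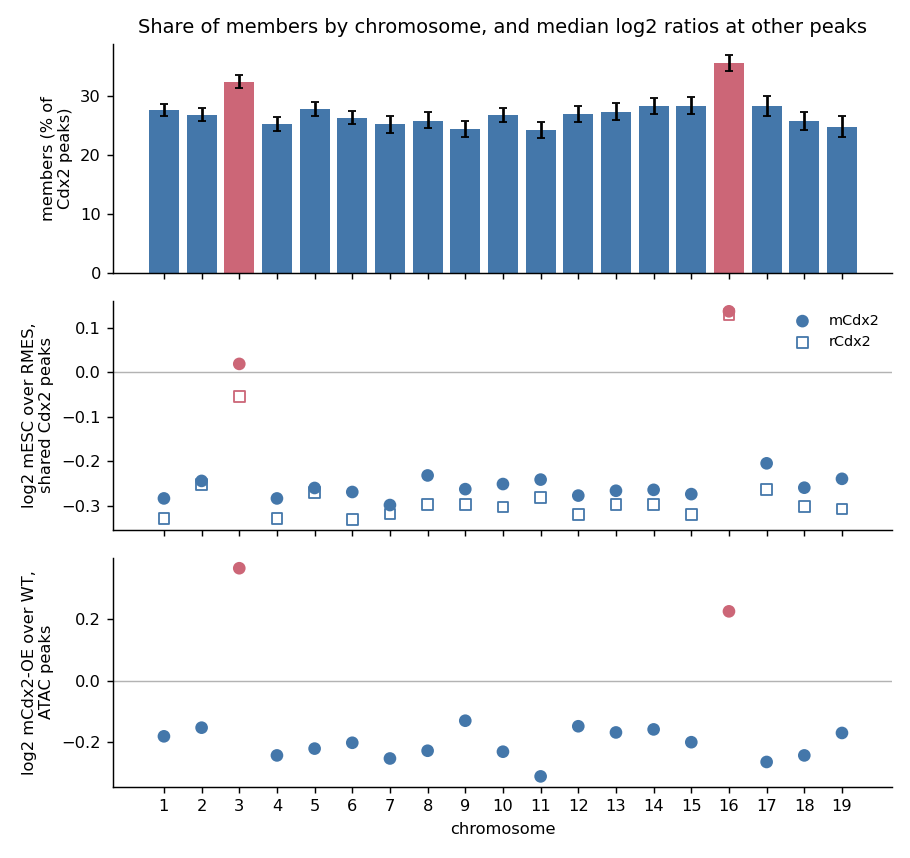
Members as a percentage of Cdx2 peaks on each autosome with 95% Wilson intervals (top), median log2 ratio of mESC over RMES reads at shared Cdx2 peaks for mCdx2 and rCdx2 (middle), and median log2 ratio of ATAC reads in mCdx2-OE over WT (bottom). Chromosomes 3 and 16, in red, lie above the other 17 in each panel.

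Runs of consecutive autosomal Cdx2 peaks without RMES overlap were counted. Such peaks were the members and the 7176 ATAC-overlapping peaks called only in mESCs, 27.6% and 8.30% of autosomal peaks. Of the runs, 12002 held 1 peak, 4296 held 2 and 17 held 10 or more. The run lengths that these shares alone would give were not worked out, so the counts are not read as a trait of members. These runs were looked for after the values were known and are described only. A run of 12 members lay in chr1:147914657-148142056, with a median of 61.3 fragments, no protein-coding gene and 2 RMES peaks between its members. Runs of 10 members and no protein-coding gene lay in chr14:109946419-110036193 and chr16:82568747-82714694, with no RMES peak, and in chr12:20272069-20770709 and chr17:76689648-76846561, with 1 RMES peak each. Other runs mixed members with ATAC-overlapping peaks and held genes. One of 14 peaks in chr17:46618738-47030871 had 7 members, and one of 13 peaks in chr16:30379420-30676539, with Atp13a3, Tmem44, Lsg1 and Fam43a, had 6.

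ATAC peaks within 5000 bases of members were opened about as often as ATAC peaks in general, and those farther away more often. Among 119304 autosomal ATAC peaks, 8.95% had over 2-fold more reads in mCdx2-OE than in WT at 40 or more scaled reads, and 14.6% had over 2-fold fewer. Of the 1950 ATAC peaks that were nearest to a member at under 1000 bases, 8.56% were opened (95% interval 7.40 to 9.89%) and 13.9% closed (12.4 to 15.5%). Near RMES-shared peaks without ATAC overlap at the same distance, 12.2% were opened (11.1 to 13.5%) and 13.3% closed. At 1000 to 5000 bases from a member 9.82% were opened (8.92 to 10.8%), and 8.64% without chromosomes 3 and 16. At 10000 to 50000 bases the opened shares were 14.1% (13.3 to 15.0%) for members and 13.1% (12.4 to 13.7%) for the shared class. The closed share near members was 15.4% at that distance and 18.2% beyond 50000 bases. Each ATAC group was 1 library, and leaving out chromosomes 3 and 16 gave 7.44% near members and 11.3% near shared peaks at under 1000 bases.

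Gene expression was compared through genes whose start had a member within 30000 bases. Of 15205 autosomal genes tested, 5116 (33.6%) had a member and 1053 had members but no other Cdx2 peak in that window. In mCdx2-OE against WT, edgeR's quasi-likelihood test over 16000 genes (Benjamini-Hochberg adjusted p under 0.05 and over 2-fold) called 18.4% of genes higher and 15% lower, and in rCdx2-OE 19% and 15.4%. Of the 1053 genes with only members, 179 were higher in mCdx2-OE (17%, 95% interval 14.9 to 19.4%) and 171 lower (16.2%, 14.1 to 18.6%), shares near those of all genes. Their median log2 change was -0.09, against -0.04 over all 15205, and turned to 0.05 with a window of 10000 bases. In rCdx2-OE 182 were higher (17.3%) and 188 lower (17.9%), with a median of -0.11 against -0.05, and 0.06 with the smaller window. The 2 comparisons share the WT libraries.

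Genes with other Cdx2 peaks beside the members had a different balance. Of 4063 such genes, 18.7% were higher and 11.3% lower (95% interval 10.3 to 12.3%) in mCdx2-OE, with a median of 0.10, and 19.3% and 11.8% in rCdx2-OE. Of 6509 genes with only other Cdx2 peaks 17.8% were higher and 15.7% lower, and of 3580 with no Cdx2 peak 17.6% and 18.3%. Without chromosomes 3 and 16 the genes with only members had 16.5% higher and 16.4% lower. Gene density and the number of peaks in the window differ between these groups, and their part was not tested.

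**Figure D4:**
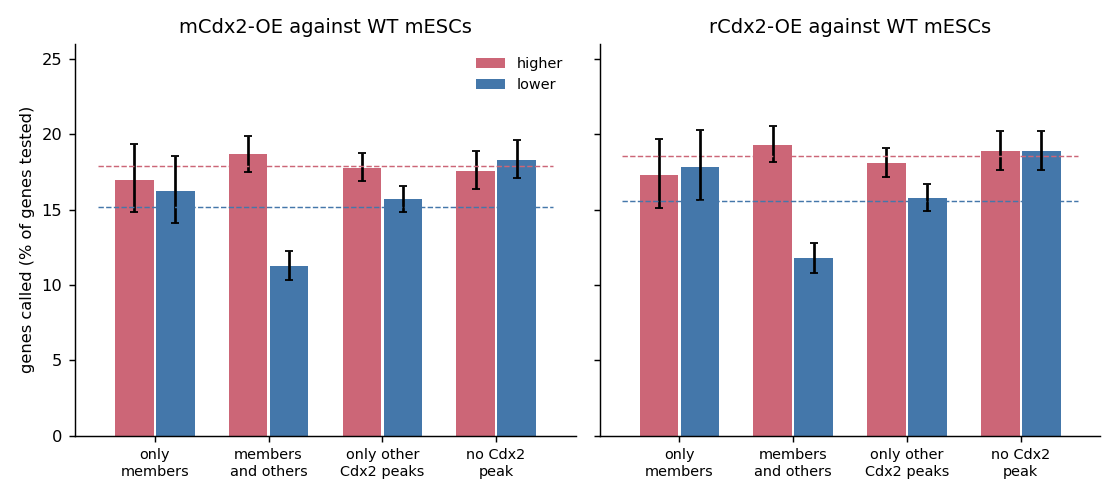
Percentage of tested genes called higher or lower against WT mESCs in mCdx2-OE (left) and rCdx2-OE (right), by the Cdx2 peaks within 30000 bases of the gene start, with 95% Wilson intervals; dashed lines give all 15205 genes. Genes with only members lie near the lines, at 17% and 16.2% on the left.

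The RNA libraries carried the overexpression. Cdx2 was at 1.36 and 1.21 CPM (counts scaled to library size after TMM normalisation) in WT, 97.9 and 127 in mCdx2-OE and 70.4 and 67.0 in rCdx2-OE. Reads were aligned to the mouse genome alone, so the levels of the mouse and rat transgenes are not compared. All 5 embryonic stem cell markers (Pou5f1, Sox2, Nanog, Zfp42 and Esrrb) were present in every group, with a sum of 3248 to 3259 CPM in WT, 2174 to 2211 in mCdx2-OE and 1979 to 2017 in rCdx2-OE. Nanog went against the sum, at 539 and 541 CPM in WT and 927 and 798 in mCdx2-OE (log2 change 0.68, adjusted p = 1.49e-06 by edgeR, within 2-fold). The 7 feeder fibroblast markers summed to 35.7 to 36.9 CPM in WT, 16.1 to 16.9 in mCdx2-OE and 19.2 to 19.7 in rCdx2-OE, where Lum and Dcn were at 0 in both induced groups and Col3a1 also in mCdx2-OE. Such marker levels do not show that feeder cells were present. Whether such cells had a part in genes that were lower after induction was not tested. In bulk RNA, fewer cells of a type and less RNA per cell cannot be told apart. WT had 74960057 and 94686029 counts, the induced libraries 12967233 to 24315929.

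Among genes with only members, the 6 largest rises were in Exph5, Dlx3, Rapgef4, Rflnb, Onecut2 and Heg1. Exph5, an effector of Rab27 in vesicle transport, was at 0.128 and 0.103 CPM in WT and 3.47 and 3.64 in mCdx2-OE (log2 change 4.90, SE 0.29, adjusted p = 4.12e-10 by edgeR). Dlx3, a homeobox gene needed in the placenta and the epidermis, was at 0.397 and 0.457 CPM in WT, 9.70 and 10.5 in mCdx2-OE and 15.5 and 16.5 in rCdx2-OE. Its log2 changes were 4.54 and 5.20, and its 2 members, at chr11:95127399-95127640 and chr11:95138710-95138951, had 24 and 16 and 20 and 21 mCdx2 and rCdx2 fragments. Both groups of induced libraries lay above WT for each of these 6 genes. For mCdx2-OE this follows from their choice as the largest rises with replicates moving alike. The rCdx2-OE libraries were set against the same WT libraries.

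Rapgef4, which encodes a cAMP-activated exchange factor for Rap, was at 0.425 and 0.605 CPM in WT and 8.36 and 9.24 in mCdx2-OE (log2 change 4.06, SE 0.20, adjusted p = 4.42e-11 by edgeR). Its intronic member, printed above, holds 1 copy of the motif 16238 bases from the gene start and had 27 mCdx2 and 35 rCdx2 fragments. Rflnb, a refilin gene, rose by 3.8 on the log2 scale. Onecut2, a transcription factor of liver and pancreas, rose by 3.57, and Heg1, a membrane protein of endothelial junctions, by 3.56. In Heg1, which lies on chromosome 16 and has 1 member, 22128 bases upstream of its start, CPM was 2.82 and 2.73 in WT and 31.7 and 34.1 in mCdx2-OE.

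The 6 largest falls were in Gm11583, 1700018A23Rik, Gm48342, Gm26582, Ebf1 and Esrp1, of which the first 4 are predicted or cDNA-defined genes. Gm11583 was at 18.6 and 19.2 CPM in WT and 0.209 and 0.130 in mCdx2-OE. 1700018A23Rik and Gm48342 were at 0 in mCdx2-OE replicate 2 and had 3 and 4 counts in replicate 1, so no fold is given for them. Ebf1, a transcription factor of B cells and mesenchyme, was at 5.10 and 5.03 CPM in WT, 0.167 and 0.0650 in mCdx2-OE and 0.308 and 0.366 in rCdx2-OE (log2 change -5.26, SE 0.30, adjusted p = 2.76e-10 by edgeR for mCdx2). Its intronic member, with 1 motif copy in the printed window, had 22 mCdx2 and 12 rCdx2 fragments. Esrp1, which controls epithelial splicing, fell from 19.9 and 18.7 to 0.836 and 0.846 CPM (log2 change -4.51).

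**Figure D5:**
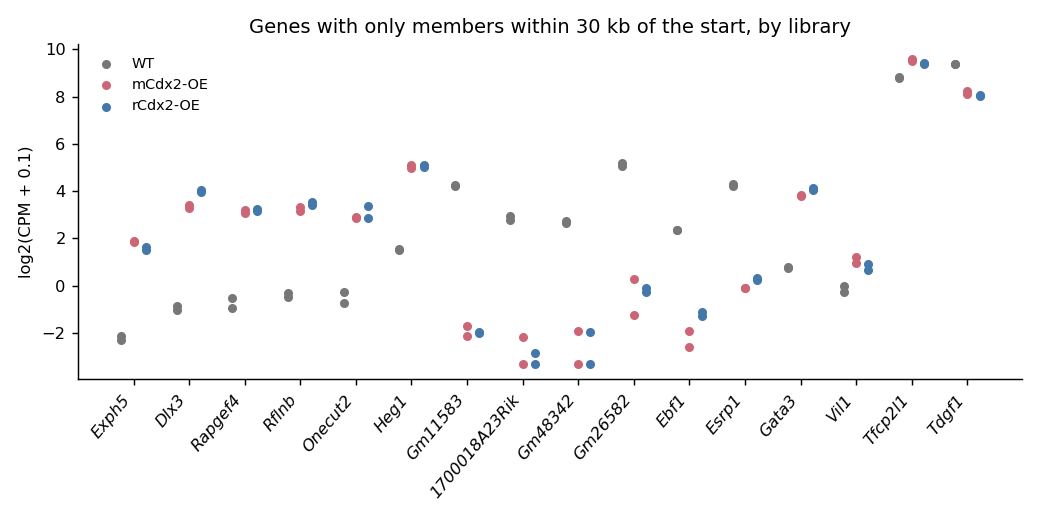
CPM of each RNA-seq library, as log2(CPM + 0.1), for genes that have members and no other Cdx2 peak within 30000 bases of the start: the 6 largest rises, the 6 largest falls and 4 genes from the lineage lists. The 2 libraries of each group are separate points; Dlx3 rises from about 0.397 CPM in WT to 9.70 in mCdx2-OE.

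Genes of the lineage lists were read against the 33.6% of tested genes with a member and the 18.4% and 15% called higher and lower in mCdx2-OE. Of 16 trophoblast stem cell genes, 8 of 15 tested rose and 1 fell in mCdx2-OE. A member was near 4 of the 16, and of these Gata3 and Ets2 rose while Esrrb and Sox21 did not pass. Gata3, a trophoblast transcription factor, had its only Cdx2 peak of the window in 1 member of 24 mCdx2 and 27 rCdx2 fragments at chr2:9915002-9915288. It was at 1.6 and 1.62 CPM in WT, 13.9 and 14.3 in mCdx2-OE and 17.4 and 16.4 in rCdx2-OE, a log2 change of 3.13 with SE 0.17 (adjusted p = 1.32e-10 by edgeR) for mCdx2. Ets2, a transcription factor of the trophoblast on chromosome 16, was at 16.8 and 18 CPM in WT and 75.8 and 86.5 in mCdx2-OE. Its window held 2 members and 1 other Cdx2 peak.

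Of 16 intestinal genes 9 had a member, but only 9 of the 16 were tested and 4 rose in mCdx2-OE. The 3 tested genes with a member all rose, although at low levels. Only Vil1 had no other Cdx2 peak in its window, while Krt20 had 2 others and Isx 4. Vil1, which encodes the microvillus protein villin, went from 0.723 and 0.891 to 2.22 and 1.82 CPM. Krt20, a keratin of intestinal epithelium, went from 0.142 and 0.0799 to 2.3 and 2.67, and Isx, an intestinal homeobox gene, from 0.0567 and 0 to 2.59 and 2.47. Of 13 naive pluripotency genes tested 3 fell and 0 rose in mCdx2-OE. Members lay near 6 of them, and of these 6 Tdgf1, a Nodal co-receptor, passed the test, falling from 669 and 676 to 277 and 300 CPM (log2 change -1.22). Tfcp2l1, whose window held 1 member and no other Cdx2 peak, was higher at 768 and 728 CPM against 439 and 458 but by less than 2-fold. Of 8 tested genes of the posterior mesoderm list 5 fell, and 1 of the 11 with a position had a member. This was Sp5, a Wnt target, which had 2 members and 4 other Cdx2 peaks and went from 10.6 and 11 to 1.92 and 1.5 CPM.

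The Hox clusters combined members with other Cdx2 peaks. Of the 39 Hox genes, 27 had a member within 30000 bases, none had members alone, and the windows overlap so that 11 members of 44.6 to 172 scaled fragments served them all. In mCdx2-OE 31 of 35 tested Hox genes rose and 0 fell, with a median log2 change of 4.45, and 22 of the 25 tested genes with a member rose. Hoxd4 was at 0.0425 and 0.0228 CPM in WT, 9.20 and 11.6 in mCdx2-OE and 9.46 and 11.6 in rCdx2-OE, with 2 members and 5 other Cdx2 peaks. Hoxb9 rose from 1.87 and 2.19 to 8.36 and 7.35 CPM. Hoxb13, with 1 member and 1 other peak, did not pass (log2 change -0.66, adjusted p = 0.232 by edgeR).

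The 6 tested genes with most members were Cry1 with 6 and Arih1, D030068K23Rik, Gm42869, Gm43462 and Kif18a with 5 each. None passed both the p and the 2-fold threshold in mCdx2-OE or rCdx2-OE. Over all tested genes 18.4% were higher and 15% lower in mCdx2-OE, so 6 genes are too few to read this as a trait of members. Gm42869 and Gm43462 have the same nearest member and were at low levels in WT, 0.156 and 0.297 CPM in the first and 0.354 and 0.286 in the second. Cry1, a circadian repressor, was at 50.6 and 50.2 CPM in WT and 23.8 and 33.8 in mCdx2-OE, a log2 change of -0.82 with adjusted p = 1.49e-05 by edgeR, so that it missed the 2-fold threshold alone. Without replicate 2 of each group its log2 change was -1.08 and it passed. Arih1, a ubiquitin ligase gene, was at 175 and 180 CPM against 189 and 216. Of the genes nearest to the 12 strongest members, Mmrn1, Slco6d1, Klk1b24, Cdh12, 1700015G11Rik and Ncam2 had no row in both RNA count tables. Fbxo8, Arrdc3, Cwc22 and Cited2 were tested and stayed within 2-fold in mCdx2-OE, with log2 changes of 0.04, 0.61, 0.18 and 0.79.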

How the data were processed

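The members, gene lists and motifs were chosen with earlier results of these data known. The authors trimmed reads, aligned ChIP-seq and ATAC-seq with Bowtie2 and RNA-seq with STAR to mm10, removed duplicates and reads of low mapping quality, called peaks with MACS2 on merged reads (both proteins for Cdx2, WT and mCdx2-OE for ATAC-seq; −log10 q over 4 for the mESC Cdx2 set) and deposited raw counts per peak or gene from featureCounts, which the values checked here bear out as whole numbers. The submitters' processing notes name STAR 2.7.0d, Bowtie2 2.3.4.3, cutadapt 2.6 and Picard 2.6.0. ChIP-seq fragments could be counted in several overlapping peaks, and the 2 RNA count tables, 1 per replicate, were counted with different pairing options.

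Peak coordinates were used as deposited with the GRCm38 sequence and GENCODE vM21 genes. ChIP-seq and ATAC-seq counts were brought to a common total, the average over both libraries of an assay, and log2 ratios used a pseudocount of 1. Motifs were searched in the 200 bases around each peak's centre, in windows 2000 bases to either side and in windows every 10000 bases along the autosomes. A promoter was within 1000 bases of a gene start. Single libraries received no test. Wilson intervals cover counting error only. RNA-seq was fitted with edgeR 4.0.16 (quasi-likelihood, TMM, filterByExpr, all 20 mESC libraries in 10 conditions) on the 19919 genes of both tables, of which 19511 had a position, and a gene was called at a Benjamini-Hochberg adjusted p under 0.05 and over 2-fold. The labels do not say that the 2 libraries of a condition came from separate cultures, so p-values measure the spread between libraries, which may be technical. Genes that share reads with near-identical copies are uncertain. The fit was checked on simulated counts.

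Named genes were the nearest genes of the 12 members with most scaled reads, the 6 largest rises and 6 largest falls in mCdx2-OE among genes with members and no other Cdx2 peak within 30000 bases (mean of at least 50 counts, replicates 1 and 2 moving alike), the 6 tested genes with most members (ties in alphabetical order), and genes of the lineage lists with a member. Alternatives were other overlap rules, scalings, motif windows, promoter and gene windows, normalisations, filters, DESeq2 1.42.0, a replicate block and leaving out libraries. The rat-genome ChIP-seq counts and the RMES RNA-seq were not used here. One of the 12 members with most scaled reads is not reported here.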

Additional observations from a re-analysis of the deposited data

How the results depend on the processing

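The number of members stayed within 1.5 times of 23826 under each alternative: 21693 when a peak within 500 bases counted as overlapping, 24520 when an overlap had to cover 50% of the shorter peak, 16825 with at least 50 scaled reads, 24884 with chromosome X and 19738 without chromosomes 3 and 16, an alternative added after seeing the data. Their share of autosomal peaks was 26.6% without those chromosomes and 22.8% with at least 50 scaled reads. Members past 2-fold were 350 toward mCdx2 and 69 toward rCdx2 with no scaling, and 60 and 96 with at least 50 scaled reads, the first because the mCdx2 library has more fragments and the second because fewer peaks enter. The motif share was 29.3% over the whole peak and 40.4% for CATAAA, and the promoter share 6.04% within 3000 bases.

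The counts of genes with only members that were called higher or lower stayed within 1.5 times of their values under RLE normalisation, no filter, DESeq2, a window of 10000 bases, without chromosomes 3 and 16 and without each library. For mCdx2-OE they ran from 164 to 177 higher and from 168 to 186 lower when a replicate was left out, and for rCdx2-OE from 165 to 184 and from 174 to 202. With the window of 10000 bases their median log2 change was 0.05 for mCdx2-OE and 0.06 for rCdx2-OE, above 0, against -0.09 and -0.11 with 30000. Whether the replicate numbers pair the samples was not settled by the deviations of same-numbered libraries from their group means. Of 45 pairs of groups 22 had a correlation of deviations over 0.1, with a median of -0.02 and a range from -0.21 to 0.64. The main fit had no replicate term. The replicate block gave 176 higher and 170 lower for mCdx2-OE and 183 and 189 for rCdx2-OE, and made the rise of Hoxb7 in rCdx2-OE pass (log2 change 2.03, adjusted p = 0.0175 by edgeR). Leaving out a replicate turned the sign of genes that had not passed: the log2 changes in mCdx2-OE ran for Fbxo8 from -0.0011 to 0.082, D030068K23Rik from -0.038 to 0.43, Gm42869 from -0.85 to 0.20, Kif18a from -0.085 to 0.37 and Hoxb7 from -0.068 without WT replicate 1 to 5.65 without WT replicate 2. In rCdx2-OE they ran for Fbxo8 from -0.11 to 0.22, Gm42869 from -0.57 to 0.91, Gm43462 from -0.86 to 1.20, Kif18a from -0.087 to 0.32, Hoxb13 from -2.37 to 0.15 and Hoxc11 from -0.65 to 0.19. It also ended or made calls for Cry1, Cited2, Vil1, Hoxb6, Hoxb7, Hoxb13, Hoxd1 and Hoxd10, and the cause was not tested. A library left alone in its group is assumed there to vary like the other groups. Median counts of 32 mCdx2 and 30 rCdx2 fragments limit ratios at single members.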
